A study of Arabidopsis thaliana with 6 samples.

Results

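The data described here are the transcript levels of 10 genes of the cytosolic HSP70 and HSP90 chaperone system in Arabidopsis thaliana, taken by their gene identifiers from count tables of 36917 genes. The genes were chosen with the difference between the genotypes in view, because several of them were higher in the mutant, so their differences between genotypes are a description and no p-value is given for them. The set holds the HSP70 genes HSP70 (AT3G12580), HSC70-1 (AT5G02500), HSC70-2 (AT5G02490) and HSC70-3 (AT3G09440), the HSP90 genes HSP90.1 (AT5G52640), HSP81-2 (AT5G56030), HSP81-3 (AT5G56010) and HSP81-4 (AT5G56000), and the co-chaperone genes HOP3 (AT4G12400) and FES1A (AT3G09350). The libraries came from 3-week-old plants of the fbn6-1 mutant, a line of ecotype Col-0 named GK_159E10 (replicates 1, 2 and 3), and of Col-0 wild type (WT, replicates 2, 3 and 4). All plants grew on soil under long days of 16 h light and 8 h dark, with no heat treatment named. The light was near 120 µmol photons per square metre per second. The mutant is 1 line, and the labels do not say whether the libraries of a genotype were separate plants, so p-values measure only the spread between these libraries.

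Proteins of the HSP70 family bind exposed hydrophobic stretches of unfolded proteins and release them in a cycle driven by ATP, while HSP90 proteins act later, on nearly folded clients such as receptors, kinases and immune sensors. HOP proteins carry clients from HSP70 to HSP90, and FES1A binds cytosolic HSP70. Some genes of both families are expressed constitutively and are called cognates (HSC70); others, among them HSP70 and HSP90.1, are known for their strong induction by heat, through heat stress transcription factors that bind heat shock elements, arrays of alternating GAA and TTC units.

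The libraries held 8668956 to 12287197 counts, of which 3257770 to 4955128 fell on nuclear genes. FBN6 had 7, 3 and 3 counts in the fbn6-1 libraries, against 1845, 1557 and 2201 in the WT libraries, as the labels imply. WT replicate 3 stood apart from the other WT libraries: the chi-square per degree of freedom between its counts and theirs was 13.9 and 13.1, against 4.58 between WT replicates 2 and 4 and 4.67 to 5.62 between fbn6-1 libraries. The 4 leaf marker genes summed to 18510 to 19388 CPM (counts scaled to library size) in fbn6-1 and 21234 to 21998 CPM in WT. By the test used below 0 of the 4 were called, but all 4 had log2 fold changes below 0 (median -0.187). Levels did not overlap for RBCS1A (6365, 6509 and 6045 CPM in fbn6-1, 7992, 7457 and 6945 in WT) and RCA (5033, 5282 and 4897 CPM in fbn6-1, 5896, 5835 and 6775 in WT). The 7 root marker genes summed to only 1.49 to 1.82 CPM in fbn6-1 and 0.176 to 1.08 CPM in WT, with EXPA7 at 0 counts in all 6 libraries. The 5 flower marker genes summed to 0.826 to 0.909 CPM in fbn6-1 and 1.06 to 1.36 CPM in WT, with AP3 at 0 counts in all 6. Neither of these lists had a gene with enough counts to be tested. The root and flower sums rest on few counts. PYK10 was the only root marker whose levels did not overlap between the genotypes (13, 10 and 6 counts in fbn6-1, 0, 2 and 1 in WT). SEP3 was the only such flower marker (0, 2 and 0 counts in fbn6-1, 5, 5 and 5 in WT). None of the 3 sums overlapped between the genotypes, and their part in the results below was not tested. In such libraries a change in the number of cells of one type and a change of RNA per cell cannot be told apart.

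All 10 chaperone genes passed the filter on low counts, and 8 of the 10 were called higher in fbn6-1, with 0 called lower, by edgeR's quasi-likelihood test at an adjusted p under 0.05 over 16584 genes. In the same test 3.82% of all tested genes were called, 1.48% higher and 2.34% lower. The 10 log2 fold changes (fbn6-1 over WT) were all above 0, with a median of 1.38, against -0.00371 over all tested genes. Values of the genotypes did not overlap for 8 of the 10 genes and for 23.0% of all tested genes. Because the genes were chosen on this contrast, these counts describe the choice. Together the 10 genes summed to 1868, 1834 and 1385 CPM in the fbn6-1 libraries, against 860, 930 and 928 CPM in the WT libraries. The plot of levels by library shows the 10 genes side by side.

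**Figure D1:**
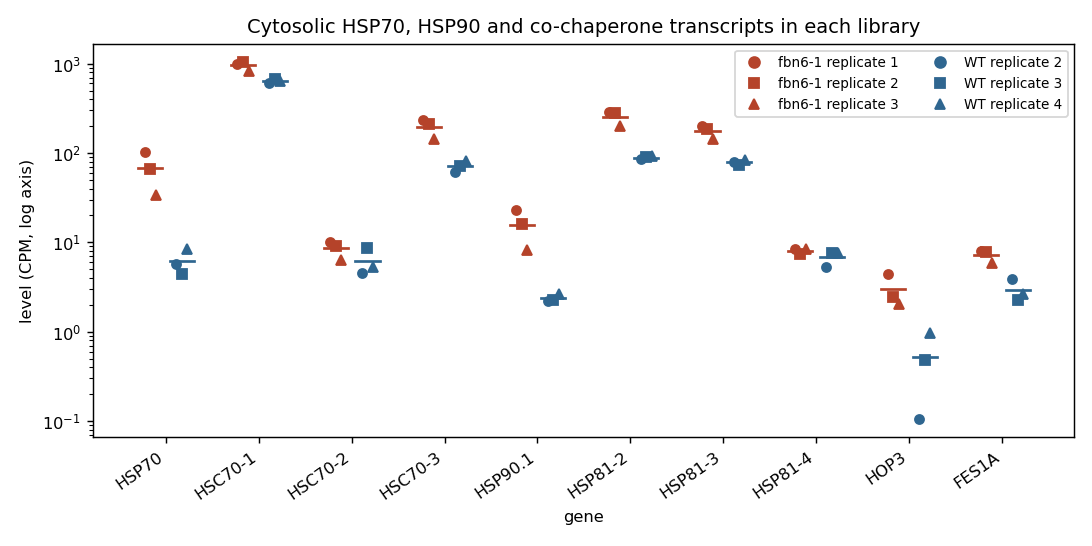
Level of each of the 10 genes (CPM on a log axis) in the 3 fbn6-1 libraries (red, left) and the 3 WT libraries (blue, right); marker shapes show the replicate and horizontal lines the mean. The red points lie above all blue points for every gene except HSC70-2 and HSP81-4, and fbn6-1 replicate 3 (triangle) is the lowest red point for every gene except HSP81-4.

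Among the HSP70 genes, the stress-inducible HSP70 gene (chromosome 3) showed the largest difference. HSP70 had 103, 67.1 and 33.9 CPM in fbn6-1 replicates 1, 2 and 3, against 5.76, 4.43 and 8.53 CPM in WT replicates 2, 3 and 4. The genotypes did not overlap, but the fbn6-1 libraries differed among themselves by 3.04-fold, and replicate 3 stood nearest to WT. The log2 fold change was 3.42 (SE 0.34), a 10.7-fold difference. It rested on 1369, 630 and 298 counts in fbn6-1 and 55, 37 and 97 counts in WT, so that counting error is small beside the spread between libraries. Without WT replicate 3, in which HSP70 was lowest, the log2 fold change was 3.25.

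HSC70-1, the main constitutive HSP70 of the cytosol, rose by much less. It stood at 990, 1048 and 835 CPM in fbn6-1, against 613, 669 and 643 CPM in WT. Every fbn6-1 library was above every WT library, at 1.49-fold on average (log2 fold change 0.58, SE 0.11). The call was lost without fbn6-1 replicate 1 (0.55, SE 0.13) and without fbn6-1 replicate 2 (0.51, SE 0.12), where fewer libraries are compared. Its means were 957 ± 110 CPM in fbn6-1 and 641 ± 28.3 CPM in WT (SD, n = 3 each), the widest gap in CPM among the 10 genes.

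HSC70-3, a further constitutive cytosolic HSP70 gene, lay between these. It had 232, 213 and 142 CPM in fbn6-1, against 61.4, 72.5 and 82.3 CPM in WT. The groups were well apart, by a log2 fold change of 1.44 (SE 0.16) or 2.72-fold. Its gene model overlaps AT3G09430 on the opposite strand and AT3G02205 on the same strand, and 16.5% of the 50-base windows of its transcript also occur in another gene, mostly AT3G09430. Whether counting was stranded is not given in the sources used here. AT3G09430 had at most 3 counts in any library, AT3G02205 at most 1, and HSC70-3 at least 586.

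HSC70-2, a cytosolic HSP70 gene of low level, lies 917 bp from HSC70-1 on the same strand of chromosome 5, with no annotated gene between them, and its coding sequence is 87.2% identical to that of HSC70-1. Its level was 10.1, 9.16 and 6.36 CPM in fbn6-1, against 4.51, 8.63 and 5.27 CPM in WT. The groups overlapped, since WT replicate 3 was above fbn6-1 replicate 3. The log2 fold change of 0.51 (SE 0.24) was not called, but without WT replicate 3 it was 0.82 (SE 0.22) and was called. That estimate is close in size to the 0.58 of HSC70-1, with a larger SE from far fewer counts (56 to 135 per fbn6-1 library). The transcripts of these neighbours share no identical window of 50 bases, so reads of that length or longer without mismatches could be told apart.

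The make-up of the cytosolic HSP70 transcripts therefore differed between the genotypes. Levels per kb of annotated exon were used to compare genes. Of the summed CPM per kb of the 4 HSP70 genes, HSC70-1 held 80.8% ± 3.81 in fbn6-1 and 90.2% ± 1.1 in WT (SD, n = 3 each). HSP70 held 8.09%, 5.26% and 3.47% in the fbn6-1 libraries, against 0.87%, 0.607% and 1.2% in the WT libraries. HSC70-3 held 12.9% ± 1.43 in fbn6-1 and 8.02% ± 0.92 in WT. For all 3 of these genes the shares of the groups did not overlap, whereas HSC70-2 stayed at or under 1.2% in each library. The shares restate the levels above and add up to the whole, so they are not separate results. The share of HSC70-1 was lower in fbn6-1 although its level was higher there.

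**Figure D2:**
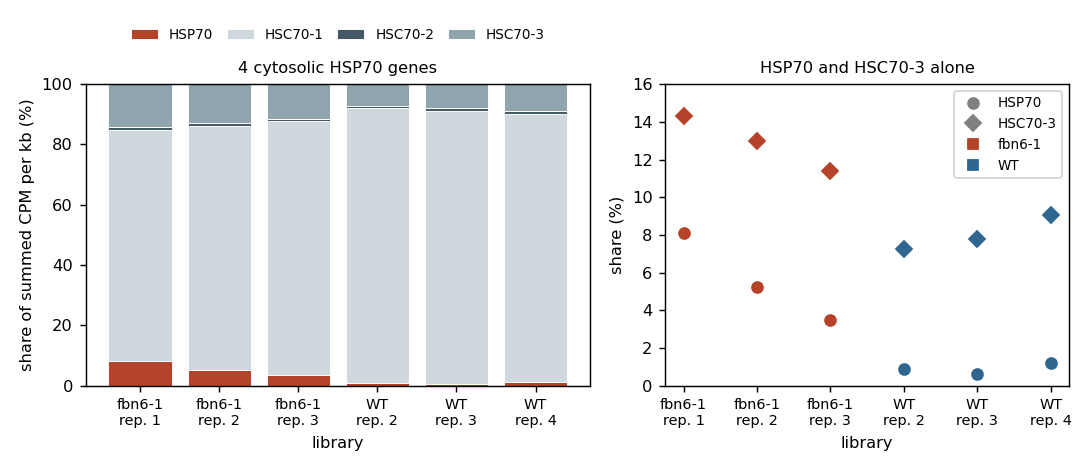
Share of each gene in the summed level per kb of 4 cytosolic HSP70 genes, in percent, for each library (left), with the shares of HSP70 and HSC70-3 alone on a finer scale (right). HSC70-1 takes most in every library, and HSP70 lies between 3.47% and 8.09% in the fbn6-1 libraries and between 0.607% and 1.2% in the WT libraries.

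Of the HSP90 genes, the heat-inducible HSP90.1 (chromosome 5) showed the largest fold. It had 23.0, 15.9 and 8.29 CPM in fbn6-1, against 2.20, 2.28 and 2.64 CPM in WT. The WT libraries were nearly equal, while the fbn6-1 libraries spread by 2.77-fold, with all of them above WT. The log2 fold change was 2.74 (SE 0.32), or 6.67-fold. HSP90.1 stayed a minor HSP90 transcript: of the summed CPM per kb of the 4 HSP90 genes it held 4.31% ± 1.36 in fbn6-1 and 1.73% ± 0.0907 in WT (SD, n = 3 each). Its annotated model holds coding sequence only (2103 bp), so its level per kb is set against a shorter length than those of the other genes.

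The constitutive HSP90 genes HSP81-2, HSP81-3 and HSP81-4 lie close together on chromosome 5, where 1085 bp separate the divergent HSP81-4 and HSP81-3, with no annotated gene between them, and 2220 bp with 1 annotated gene separate HSP81-3 and HSP81-2. HSP81-2 had 287, 277 and 201 CPM in fbn6-1, against 85.1, 89.5 and 91.9 CPM in WT (log2 fold change 1.52, SE 0.13). HSP81-3 had 202, 187 and 142 CPM in fbn6-1, against 79.6, 72.8 and 84.0 CPM in WT (log2 fold change 1.17, SE 0.13). Both pairs of groups were far apart, and the WT libraries of each gene lay within 1.15-fold of one another. HSP81-4, the third copy, had 8.41, 7.35 and 8.52 CPM in fbn6-1, against 5.34, 7.67 and 7.56 CPM in WT. Here the groups overlapped, and the log2 fold change of 0.24 (SE 0.18) was not called under any alternative run.

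The 3 copies are so alike that the assignment of reads between them is uncertain. Of 2100 aligned coding bases, 152 (7.24%) differed in at least 1 copy, and the longest run identical in all 3 was 152 bases. Of the 50-base windows of their transcripts, 18.8% (HSP81-2), 23.9% (HSP81-3) and 18.7% (HSP81-4) occurred unchanged in another gene; with 100-base windows these shares were 7.40%, 10.8% and 5.36%. The stretch of 60 coding bases in which the copies differ most is shown because reads over it can separate them; capitals mark the 12 positions that are not the same in all 3 (chr5:22689098-22689157 on the plus strand, chr5:22683576-22683635 on the plus strand and chr5:22677878-22677937 on the minus strand, RefSeq TAIR10.1).
HSP81-2: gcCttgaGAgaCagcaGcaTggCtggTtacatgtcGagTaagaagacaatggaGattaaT
HSP81-3: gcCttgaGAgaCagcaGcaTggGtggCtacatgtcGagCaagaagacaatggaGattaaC
HSP81-4: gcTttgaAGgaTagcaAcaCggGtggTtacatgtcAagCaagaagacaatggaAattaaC
Summing the copies avoids the split between them. The sum of HSP81-2, HSP81-3 and HSP81-4 was 498, 471 and 352 CPM in fbn6-1, against 170.1, 170.0 and 184 CPM in WT, a log2 ratio of means of 1.34. HSP81-2 and HSP81-3 made up most of that difference in CPM.

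Both co-chaperone genes were of low abundance, and HOP3 was the least abundant gene of the set. HOP3, which encodes the heat-inducible one of the HOP proteins, had 4.43, 2.45 and 2.05 CPM in fbn6-1, against 0.105, 0.479 and 0.967 CPM in WT. The groups did not overlap, but WT held only 1, 4 and 11 counts and fbn6-1 59, 23 and 18, so the log2 fold change of 2.47 has a wide error (SE 0.50). Without WT replicate 4 it was 3.39 (SE 0.62), and the call was lost without fbn6-1 replicate 1 (2.03, SE 0.56) and without WT replicate 2 (2.01, SE 0.48). HOP3 overlaps PME1 on the opposite strand by 163 bp; PME1 had 6.17 ± 0.123 CPM in fbn6-1 and 6.61 ± 1.53 CPM in WT and was not called.

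FES1A had 8.11, 7.88 and 5.91 CPM in fbn6-1, against 3.88, 2.28 and 2.64 CPM in WT. The groups did not overlap, and the log2 fold change was 1.32 (SE 0.23), or 2.50-fold. The call was kept whichever library was left out, at 1.19 to 1.56. It was lost with the replicate number as a block (1.17, SE 0.29), a fit whose contrast rests on replicates 2 and 3 of each genotype alone.

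Levels per kb placed the genes in a different order in the genotypes. In fbn6-1 the order was HSC70-1 (375 ± 43.1 CPM per kb), HSP81-2 (88.8 ± 16.4), HSP81-3 (67.7 ± 12.0), HSC70-3 (60.7 ± 14.6), HSP70 (26.9 ± 13.7), HSP90.1 (7.47 ± 3.49), FES1A (3.92 ± 0.65), HSC70-2 (3.44 ± 0.79), HSP81-4 (3.30 ± 0.26) and HOP3 (1.09 ± 0.47; SD, n = 3 each). In WT it was HSC70-1 (251 ± 11.1 CPM per kb), HSP81-2 (30.9 ± 1.21), HSP81-3 (30.2 ± 2.16), HSC70-3 (22.4 ± 3.24), HSP81-4 (2.80 ± 0.54), HSP70 (2.48 ± 0.83), HSC70-2 (2.47 ± 0.88), FES1A (1.57 ± 0.45), HSP90.1 (1.13 ± 0.11) and HOP3 (0.190 ± 0.159). HSP70 thus stood with HSC70-2 and HSP81-4 in WT, within the spread of those genes, and above both in every fbn6-1 library. Neighbours whose ranges of mean ± SD overlapped were in fbn6-1 HSP81-2, HSP81-3 and HSC70-3, and further down HSP90.1, FES1A, HSC70-2 and HSP81-4. In WT they were HSP81-2 and HSP81-3, and further down HSP81-4, HSP70, HSC70-2, FES1A and HSP90.1. These ranges do not compare genes within a library. In each fbn6-1 library HSP81-2 was above HSP81-3, which was above HSC70-3, and HSP90.1 was above FES1A, which was above HSC70-2. FES1A was above HSP90.1 in each WT library. The order of the other overlapping neighbours varied between libraries.

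The fbn6-1 libraries were uneven in the same direction for most of these genes. Replicate 1 was the highest fbn6-1 library for 8 of the 10 genes and replicate 3 the lowest for 9, and both held for 8; over all tested genes the shares were 30.6%, 35.8% and 16.2%. The exceptions were HSC70-1, highest in replicate 2, and HSP81-4. The genes with the largest fold changes, HSP70 and HSP90.1, were also the most uneven among fbn6-1 libraries, with coefficients of variation of 50.8% and 46.7%, against 11.5% for HSC70-1. The depth of the fbn6-1 libraries lay in the same order as these levels, with 12287197, 9090115 and 8668956 counts in replicates 1, 2 and 3, and its part in the levels, which are already scaled by library size, was not tested.

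A search of genomic sequence asked which of the genes carry the letters of a heat shock element. The core searched was GAANNTTC or TTCNNGAA; each reads the same on both strands. In the 300 bases before the annotated gene start, 3 of the 10 genes (HSC70-2, HSP90.1 and FES1A) held a core, against 19.3% of 27443 protein-coding genes. A longer element of 3 alternating units, GAANNTTCNNGAA or TTCNNGAANNTTC, which contains overlapping cores, was there in 1 gene, HSP90.1, against 0.485% of all. Of 238 protein-coding genes called higher in fbn6-1, 19.3% held a core in these 300 bases and 0.42% the longer element. Some gene models begin at the coding region and others far upstream of it. The model of HSP90.1 begins at its annotated start codon, so its 300 bases may hold transcribed sequence and are not comparable with those of the other genes. The 500 bases before the annotated start codon were therefore searched as well, a window chosen after the first result was seen. In that window 7 of the 10 genes held a core, against 33.8% of all protein-coding genes, and 6 held the longer element, against 1.19%. The same window was searched in 5 further lists, described below. Of 15 genes of the small heat shock protein and HSP101 list, 15 held a core and 4 the longer element. Of 15 heat stress factors and their regulators 11 held a core and 5 the longer element. These lists had no called gene, but 13 and 4 of their genes had too few counts to be tested. A core was held by 10 of 20 co-chaperones, 5 of 10 organelle genes and 3 of 5 other HSP70 and HSP110 genes, and the longer element by 0, 2 and 1.

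The longer element was present in HSP70, HSC70-1, HSC70-2, HSC70-3 (at 2 places), HSP90.1 and HOP3. Apart from HSP90.1, these matches lay inside the annotated gene, 32 to 174 bases from its start. In HSP70, HSC70-1, HSC70-2 and HOP3 that place is an exon ahead of the start codon, and in HSC70-3 an exon of another transcript of the gene. They are shown with 8 flanking bases on either side, capitals marking the element, because 6 of the 10 genes hold them. Sequences are 5′ to 3′ on the strand of the gene, from RefSeq TAIR10.1, at chr3:3993846-3993874 (minus), chr5:556554-556582 (minus), chr5:552686-552714 (minus), chr3:2905894-2905922 and chr3:2905765-2905793 (both minus), chr5:21352254-21352282 (plus) and chr4:7341319-7341347 (minus).
HSP70: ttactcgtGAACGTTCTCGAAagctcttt
HSC70-1: caaccatcGAACATTCTCGAAacatttta
HSC70-2: taattacaGAACATTCTGGAAactcaagt
HSC70-3, distal: atcgaaccGAACATTCTCGAAccttttta
HSC70-3, proximal: gagccatcGAACCTTCTCGAAactcgagt
HSP90.1: aacgaaaaGAACTTTCTGGAAttcgtttg
HOP3: aaaaattcGAAATTTCGAGAActctcttg
The element of HSP70 began 177 bases before the start codon and that of HOP3 100 bases before it, with the others between 141 and 295 bases. FES1A held the shorter core only, at 2 places.
FES1A, distal: aaggtaaaTTCAAGAAaggcttat
FES1A, proximal: gtagtagcTTCGCGAAtaatctca
These lie at chr3:2870899-2870922 and chr3:2871063-2871086 on the plus strand. HSP81-2, HSP81-3 and HSP81-4 held neither form in this window. For each gene the window was counted from the start codon of its longest annotated coding model. That model has 728 residues in HSP81-2, against 699 in HSP81-3 and HSP81-4, so the HSP81-2 window begins from a different start codon and is not aligned with theirs. In genes with the longer element the log2 fold changes were 3.42 (HSP70), 2.74 (HSP90.1), 2.47 (HOP3), 1.44 (HSC70-3), 0.58 (HSC70-1) and 0.51 (HSC70-2). In genes without it they were 1.52 (HSP81-2), 1.32 (FES1A), 1.17 (HSP81-3) and 0.24 (HSP81-4). HSC70-2 and HSP81-4 were not called. Whether the letters bear on these differences was not tested. A match is a run of letters, not evidence of a bound site.

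**Figure D3:**
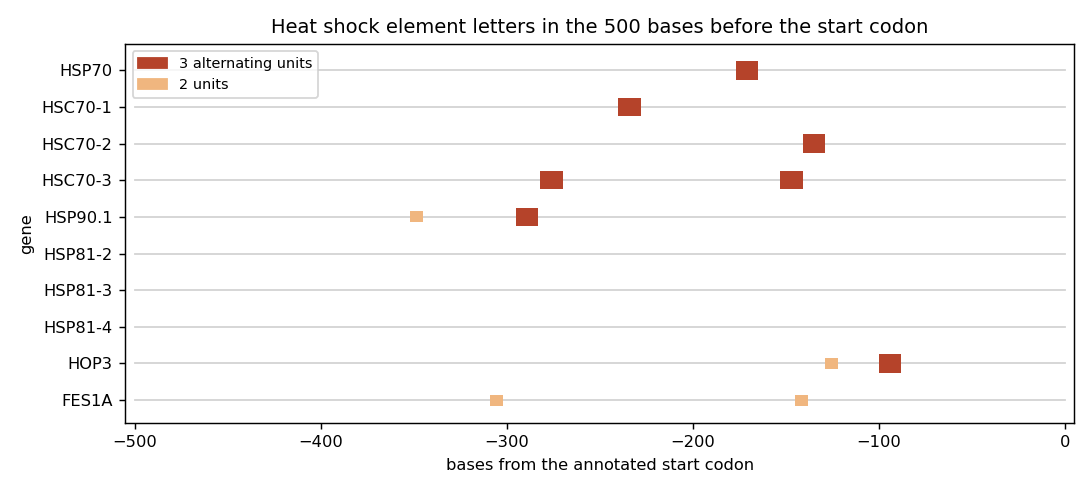
Position of matches to heat shock element letters in the 500 bases before the annotated start codon of each of the 10 genes, in bases from the start codon; red bars mark 3 alternating units and orange bars 2 units outside them. The longer element lies in 6 genes, between 88 and 295 bases before the start codon, and the 3 HSP81 genes have no match.

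The other genes of the system were taken from 5 lists holding 65 genes, of which 45 had enough counts to be tested. Of these, 3 were called higher and 0 lower, where 1.48% of all tested genes were called higher and 2.34% lower. Their median log2 fold change was 0.16. An unadjusted p under 0.05 was found for 14 of the 45, with 12 higher and 2 lower, where all tested genes had 8.04% higher and 9.80% lower. DESeq2 called 4 of the 45. Values of the genotypes did not overlap for 14 of the 45, against 23.0% of all tested genes. Most of the 45 were not called, as was true of all tested genes, and the plot of differences by list shows each of them.

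**Figure D4:**
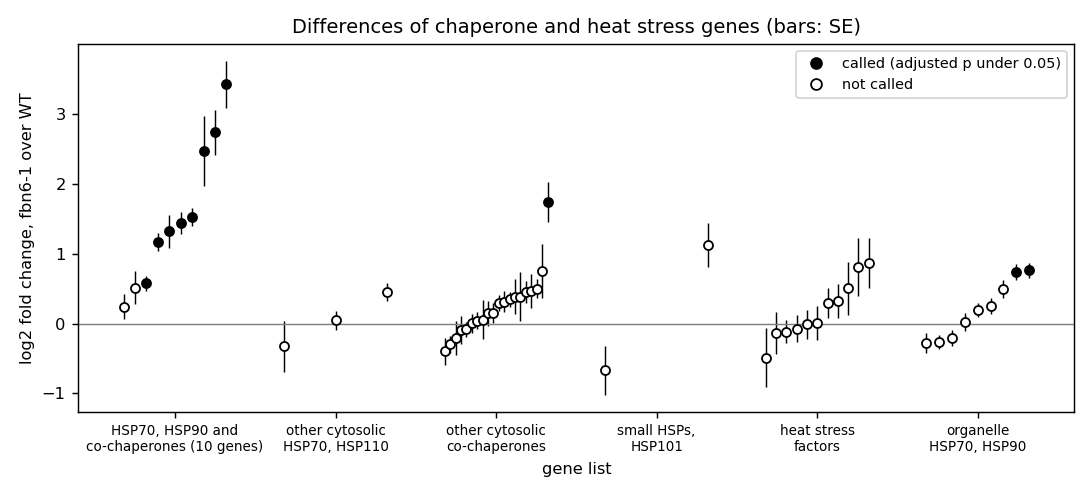
Log2 fold change (fbn6-1 over WT, bars show the SE) of the 10 genes and of the tested genes of 5 further lists; filled points were called at an adjusted p under 0.05. The 10 genes reach 3.42, while in the other lists only ROF2 (1.74), cpHSC70-2 (0.76) and HSP90.6 (0.74) are filled.

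Of 20 further cytosolic co-chaperones, all tested, 1 rose and 19 were not called. The one that rose was ROF2 (AT5G48570), a peptidyl-prolyl isomerase of the FKBP family that binds HSP90. ROF2 had 13.4, 11.2 and 5.79 CPM in fbn6-1, against 2.83, 2.40 and 3.87 CPM in WT, with no overlap and the same uneven fbn6-1 libraries as HSP70 (log2 fold change 1.74, SE 0.29, adjusted p = 0.00362, edgeR quasi-likelihood test). Its relative ROF1 had 17.9 ± 4.44 CPM in fbn6-1 and 13.6 ± 6.15 CPM in WT (0.38, SE 0.25). The other HOP genes, HOP1 (0.16, SE 0.14) and HOP2 (0.31, SE 0.15), and the other FES1 genes, FES1B (-0.40, SE 0.19) and FES1C (-0.30, SE 0.12), were not called. The DnaJ co-chaperone gene J2, whose product stimulates HSP70, stood at 26.0, 29.7 and 21.2 CPM in fbn6-1, against 16.8, 19.8 and 18.0 CPM in WT, with no overlap, and just missed the threshold (0.50, SE 0.14, adjusted p = 0.0595). It was called without WT replicate 3 (0.56, adjusted p = 0.0211) and without fbn6-1 replicate 3, and 3 co-chaperones in all were called without fbn6-1 replicate 3.

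Of 5 other cytosolic HSP70 and HSP110 genes 3 were tested and 0 called in edgeR, with 1 at an unadjusted p under 0.05 and 0 called by DESeq2. HSP70B, another heat-inducible HSP70 gene, had 0.901, 1.70 and 1.70 CPM in fbn6-1, against 2.20, 1.68 and 1.41 CPM in WT (-0.33, SE 0.37, adjusted p = 0.713). The HSP110-type gene HSP70-15, a nucleotide exchange factor of HSP70, had 90.9, 94.2 and 71.8 CPM in fbn6-1, against 61.8, 54.2 and 71.7 CPM in WT (0.45, SE 0.13, adjusted p = 0.0700), and was called without fbn6-1 replicate 3.

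The small heat shock proteins, which hold unfolded proteins in solution and are among the strongest heat-induced genes of plants, were nearly silent in both genotypes. With HSP101, the disaggregase that works with HSP70, the list held 15 genes, of which 13 had too few counts for the test. The list summed to 14.8, 11.8 and 6.70 CPM in fbn6-1, against 6.39, 5.27 and 7.74 CPM in WT. HSP101 itself had 9.08, 7.45 and 3.64 CPM in fbn6-1, against 2.31, 2.76 and 4.22 CPM in WT. These groups overlapped, and the log2 fold change of 1.12 (SE 0.31) was not called by edgeR (adjusted p = 0.0621) but was by DESeq2 (adjusted p = 0.0414). HSP17.4B, the other tested gene of the list, had a value in the opposite direction, with 1.35, 1.07 and 0.909 CPM in fbn6-1 and 2.20, 1.32 and 1.85 CPM in WT (-0.67, SE 0.35, adjusted p = 0.350), and was not called. HSP22.0 had 0 counts in all 6 libraries, which allows up to 0.225 to 0.341 CPM in the fbn6-1 libraries and 0.264 to 0.359 CPM in the WT libraries (3 counts per library, counting error only). HSP23.5, a mitochondrial small heat shock protein gene, had 22, 7 and 6 counts in fbn6-1, against 4, 1 and 0 in WT. It was tested and called only without the filter on low counts (adjusted p = 0.00909, edgeR). That run gave HSP70 an SE of 0.148, against 0.34 with the filter, so the p-values of that run reflect less of a gene's own spread between libraries.

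Of 15 heat stress factors and their regulators 11 were tested and 0 called in edgeR, with 1 at an unadjusted p under 0.05 and 0 called by DESeq2. The constitutive factors HSFA1A (0.01, SE 0.24), HSFA1B (-0.07, SE 0.19) and HSFA1D (-0.14, SE 0.30) lay near 0, with means of 2.50 to 5.39 CPM. HSFA1E, of the same group, had 2.25, 2.56 and 0.909 CPM in fbn6-1, against 1.47, 1.20 and 1.41 CPM in WT, with overlap, and was not called (0.50, SE 0.38). HSFA2, the heat-inducible factor, had 19, 3 and 8 counts in fbn6-1, against 0, 2 and 2 in WT, too few for the test. Without the low-count filter it was called higher (adjusted p = 0.0171, edgeR), with the limit given above for that run. HSFB2B (0.87, SE 0.36, adjusted p = 0.222) and HSFA3 (0.80, SE 0.42) had SE too large to place a 2-fold change.

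Of 10 HSP70 and HSP90 genes of plastids, mitochondria and the endoplasmic reticulum 9 were tested, 2 rose and 0 fell, beside the 1.48% and 2.34% of all tested genes. The plastid gene cpHSC70-2 had 332, 328 and 278 CPM in fbn6-1, against 192, 162 and 200 CPM in WT, with no overlap (0.76, SE 0.11, adjusted p = 0.00149). Its sister gene cpHSC70-1 had 216, 229 and 185 CPM in fbn6-1, against 187, 156 and 188 CPM in WT, and was not called (0.25, SE 0.11, adjusted p = 0.263). HSP90.6, the HSP90 gene of mitochondria, had 36.9, 33.3 and 33.5 CPM in fbn6-1, against 21.0, 19.5 and 21.7 CPM in WT (0.74, SE 0.11, adjusted p = 0.00172). The mitochondrial HSP70 gene mtHSC70-2 averaged 23.1 ± 0.712 CPM in fbn6-1 and 16.3 ± 2.71 CPM in WT (SD, n = 3 each). Its groups did not overlap, and it just missed the threshold (0.49, SE 0.13, adjusted p = 0.0559). The genes of the endoplasmic reticulum had values below 0, with BIP1 at -0.28 (SE 0.14), BIP2 at -0.21 (SE 0.11) and HSP90.7 at -0.26 (SE 0.10), and none was called.

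Of 9901 other genes averaging 5 CPM or more, 69 had a Pearson's r above 0.95 with HSP70 over the 6 libraries, on log2(CPM + 0.5). The 5 most alike were AT5G59450 (0.993), SCAMP2 (0.992), AT3G04550 (0.992), AT4G39680 (0.990) and cpHSC70-2 (0.988). Among the set itself HSP81-3 (0.997) and HSP90.1 (0.993) were as close. These values are a description over 6 libraries that share the split into genotypes, and AT5G59450, SCAMP2 and AT4G39680 were not called, with log2 fold changes of 0.39, 0.48 and 0.22, far below that of HSP70.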

How the data were processed

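Gene counts of 6 libraries were analysed, 3 of fbn6-1 and 3 of WT, grouped by the sample titles. The authors deposited raw counts per gene; TopHat2 2.1.1, featureCounts, Trimmomatic and FastQC, and the build TAIR10, are named per the submitters' processing notes. The sources used here give no settings, annotation release, strandedness or handling of reads with several matches, so reads of alike or overlapping genes may have been lost or moved.

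The genes and lists were chosen with earlier results of these data known. edgeR 4.0.16 (R 4.3.3) gave the tests (two-sided quasi-likelihood test, TMM, filterByExpr with minimum count 10 and minimum total 15), with Benjamini-Hochberg adjustment over 16584 genes; the SE is the log2 fold change over the square root of F. CPM values were computed from the counts with the TMM-scaled library size. The biological coefficient of variation common to all genes was 0.124. Named genes are the 10 genes, FBN6, up to 3 called genes per list and direction, and the 5 most like HSP70; other named genes were chosen after their values were seen. Alternatives used DESeq2 1.42.0, limma 3.58.1, other scalings and filters, a replicate block and leaving out each library.

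Gene models and sequences came from RefSeq TAIR10.1, matched by identifier (36632 of 36917). Lengths are merged annotated exons.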

Additional observations from a re-analysis of the deposited data

How the results depend on the processing

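The number of the 10 genes called higher was 6 to 9 under every alternative run, with 0 called lower, and no log2 fold change of the 10 genes, ROF2, cpHSC70-2, HSP90.6 or FBN6 changed sign. HSP70, HSC70-3, HSP90.1, HSP81-2 and HSP81-3 were called in each of the 15 alternatives. The genes were chosen on this contrast in the same libraries, so these repeated calls only describe how far the choice depends on the settings. Calls over all genes, 245 higher and 388 lower, became 508 and 195 with library size only, which moves the median of all genes by 0.13 (log2), 505 and 727 with no low-count filter, and 69 and 151 at an adjusted p under 0.01; leaving out 1 library gave 84 to 463 higher and 171 to 775 lower, the most without WT replicate 3. Higher calls of other cytosolic HSP70 and HSP110 genes became 1 with library size only and with no low-count filter (0 to 1 with a library left out), those of co-chaperones 3 and 3 (1 to 3), and those of small heat shock proteins and HSP101 1 and 2 (0 to 1; DESeq2 called 1); heat stress factors had 1 with no low-count filter. Genes with a heat shock core became 1 with the longer element and 7 in the start codon window, by the construction of these searches; the cause of the other changes was not tested.

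The replicate numbers 2 and 3 occur in both genotypes, and nothing says whether they pair the libraries. The deviations of libraries with the same number correlated by -0.0345 (number 2) and 0.0976 (number 3). Those of libraries with unlike numbers correlated by -0.204 to 0.125, so these values cannot tell whether the libraries were paired. Number 1 occurs only in fbn6-1 and number 4 only in WT, so with the replicate block the contrast rests on replicates 2 and 3 of each genotype alone. In that smaller comparison 73 genes were called higher and 118 lower, and organelle HSP70 and HSP90 genes had 1 call (HSP90.6 was lost). Of the 10 genes 6 were called, HSC70-1 (0.55, SE 0.19) and FES1A (1.17, SE 0.29) not. Whether these calls were lost through the block or through fewer libraries was not tested.

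Low counts limit HOP3, HSFA2 and the small heat shock proteins. Calls of the run with no low-count filter reflect less of each gene's own spread between libraries.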
